A study of Homo sapiens with 3 samples.

Results

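Levels of 6 genes for fatty acid and retinol binding proteins, FABP1, FABP2, FABP5, FABP6, RBP2 and RBP4, were followed across single cells of a Caco-2/HT29 co-culture. The genes were taken by their symbols from the 33538 genes of the count matrices, and all 6 were found and passed the filter on low counts. Caco-2 and HT29 are human colorectal carcinoma lines, used at passage 8 and 13. They were seeded together on Transwell inserts at 9 parts Caco-2 to 1 part HT29 and harvested on day 23. The design has 2 untreated control libraries and 1 library that received 1 ng/ml of Escherichia coli O111:B4 lipopolysaccharide (LPS) in the apical chamber from day 22 for 24 h. All 3 libraries share the lines, their passages, the seeding ratio and the harvest day. The model has no immune or mesenchymal layer, and its epithelium comes from tumour lines. Libraries were made with the droplet kit for 3′ ends of 10x Genomics, and each captured RNA molecule is counted by a unique molecular identifier (UMI).

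Fatty acid binding proteins are small carriers that hold fatty acids and other lipids in the cytosol. FABP1, the liver type, and FABP2, the intestinal type, are carriers of absorptive enterocytes. FABP6 is the ileal carrier of bile acids, and FABP5 is the epidermal type. RBP2 holds retinol and retinal inside enterocytes and brings retinol to esterification, whereas RBP4 is secreted and carries retinol in plasma together with transthyretin (TTR).

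The genes lie apart in the genome. On GRCh38 with the GENCODE annotation, FABP1 lies at chr2:88122982-88128062 (minus strand, ENSG00000163586), RBP2 at chr3:139452884-139480747 (minus, ENSG00000114113) and FABP2 at chr4:119317250-119322138 (minus, ENSG00000145384). FABP6 lies at chr5:160187367-160238735 (plus, ENSG00000170231), FABP5 at chr8:81280536-81284777 (plus, ENSG00000164687) and RBP4 at chr10:93591687-93601744 (minus, ENSG00000138207). The reference transcript has 6 exons in RBP4 and 4 exons in each of the other 5 genes. UMIs count molecules at their 3′ end, so no level was divided by length, and levels are compared for the same gene between cells.

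The 3 libraries hold 5811, 6495 and 6838 barcodes and 24185467 to 33893707 UMIs. After the cell minimums and the removal of doublets, 4633 cells of control 1, 4989 of control 2 and 4850 of the LPS library were kept, with medians of 5459, 4103 and 3574 UMIs per cell. Libraries shared 9 to 11 barcode sequences. Clusters were made without the 6 genes and without the pathway lists used below. A cluster was called Caco-2-line or HT29-line by its UMIs of line markers, a rule written after the clusters had been seen. Of the 12 clusters, 9 were Caco-2-line, 2 were HT29-line and cluster 9 took no line. The Caco-2-line class held 3946, 3973 and 3954 cells and the HT29-line class 627, 940 and 827 cells in control 1, control 2 and LPS. The methods name separate Transwells, and the study also speaks of the controls as batches, but whether these were separate seedings is not given, so p-values measure only the spread between these 2 libraries.

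FABP1, FABP2 and RBP2, 3 of the carriers of the enterocyte cytosol, were most abundant in the same cluster, as described below. The 250 bases before their RefSeq start sites (GRCh38.p14, read on the strand of the gene, all on the minus strand) are shown for this reason. Capitals mark letters found by a search on both strands for 6 motifs. The TATA box was searched as TATAAA. The letters GTTAAT were searched as well. The CDX-type motif was searched as CATAAA. The GATA-type motif was searched as AGATAA. The core of a DR1-type site was searched as TGNNCTTT. The nuclear receptor motif was searched as AGGTCA.
FABP1, chr2:88128063-88128312: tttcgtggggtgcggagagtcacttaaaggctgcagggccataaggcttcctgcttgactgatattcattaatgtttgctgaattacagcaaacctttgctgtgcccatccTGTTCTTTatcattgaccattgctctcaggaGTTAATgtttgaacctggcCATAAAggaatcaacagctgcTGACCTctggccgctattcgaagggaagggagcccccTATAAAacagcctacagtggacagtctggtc
RBP2, chr3:139476517-139476766: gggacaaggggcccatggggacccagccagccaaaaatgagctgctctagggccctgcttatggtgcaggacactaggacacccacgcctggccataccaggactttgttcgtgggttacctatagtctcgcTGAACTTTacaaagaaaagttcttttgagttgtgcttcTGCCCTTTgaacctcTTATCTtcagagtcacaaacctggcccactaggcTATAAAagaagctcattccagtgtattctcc
FABP2, chr4:119322139-119322388: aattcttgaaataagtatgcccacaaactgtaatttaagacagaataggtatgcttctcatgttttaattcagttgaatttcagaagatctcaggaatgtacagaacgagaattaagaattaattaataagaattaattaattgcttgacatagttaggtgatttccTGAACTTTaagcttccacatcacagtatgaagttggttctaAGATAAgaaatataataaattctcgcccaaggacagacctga

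The letters TATAAA begin 31 bases before the start of both FABP1 and RBP2, and 10.7% of all 35116 windows of this length hold them. The letters TGNNCTTT occur in all 3 windows, beginning 139 bases before the start in FABP1, 118 and 80 in RBP2 and 83 in FABP2, and in 14.6% of all windows. GTTAAT is held by 6.23% of all windows, CATAAA by 9.64%, AGATAA by 9.17% and AGGTCA by 12.1%. The windows not shown hold such letters too. An RBP4 window has TATAAA beginning 31 bases before its start. Another RBP4 window has TGNNCTTT on the other strand, 56 bases before its start. The FABP6 window has TATAAA on the other strand, 30 bases before the start. These letters are thus not particular to the 3 genes shown. A match describes the letters alone. The GC content of the windows was 48.0% for FABP1, 50.4% for RBP2 and 31.2% for FABP2, against a median of 58.0% over all windows.

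In which line of the co-culture each gene is expressed was asked first. FABP1, FABP2, RBP2 and RBP4 were between 8.48- and 9.40-fold lower in HT29-line than in Caco-2-line cells of the controls, whereas FABP5 and FABP6 did not pass the test. Levels are given in CPM, the UMIs of a gene scaled to a fixed total of UMIs of its class.

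Among the enterocyte carriers, FABP1 stood at 2628 CPM in control 1, 2365 in control 2 and 2204 in LPS within Caco-2-line cells. In HT29-line cells the same libraries gave 349, 256 and 327 CPM. No HT29-line value came near a Caco-2-line value. The fitted log2 difference in the controls was -3.11 ± 0.19 (SE; edgeR quasi-likelihood test, Benjamini-Hochberg adjusted p = 5.7e-07). FABP2 was rare, at 14.3, 7.67 and 6.66 CPM in Caco-2-line cells. In HT29-line cells it had 7, 3 and 8 UMIs, or 1.71, 0.743 and 2.27 CPM. Its difference was -3.23 ± 0.53 (edgeR adjusted p = 0.00044), which rests on 10 HT29-line UMIs in the controls. RBP2 stood at 414, 184 and 170 CPM in Caco-2-line cells, with control 1 well above the others. In HT29-line cells it stood at 64.7, 8.91 and 21.0 CPM. The difference was -3.08 ± 0.63 (edgeR adjusted p = 0.0018), and it was -4.42 without control 1 and -2.74 without control 2.

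RBP4, the secreted carrier, stood at 481, 424 and 340 CPM in Caco-2-line cells and at 67.1, 37.1 and 52.6 CPM in HT29-line cells. The difference was -3.18 ± 0.25 (edgeR adjusted p = 3.1e-06). Over all genes tested in this comparison, 57.9% were called, 30.5% lower and 27.4% higher in HT29-line cells, so 4 of 6 lower is to be read against a comparison in which most genes differed.

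FABP5, the epidermal type, was at 65.6, 76.9 and 54.3 CPM in Caco-2-line cells and at 63.5, 75.7 and 77.3 CPM in HT29-line cells. The ranges overlapped, and the difference of -0.10 ± 0.15 did not pass (edgeR adjusted p = 0.58). FABP6, the bile acid carrier, was the rarest with FABP2, at 3.88, 6.03 and 2.28 CPM in Caco-2-line cells and 7.57, 6.19 and 10.2 CPM in HT29-line cells. In each library the HT29-line value was the higher. The difference of 0.43 ± 0.30 did not pass (edgeR adjusted p = 0.24), and it was -0.02 without control 1 and 0.90 without control 2, with no test. With the library as a replicate block over all 3 libraries the difference was 0.94 and passed (edgeR adjusted p = 0.0054). Control 2 owes its Caco-2-line value in part to 1 cell of cluster 1, which held 46 of the 121 FABP6 UMIs. Without it the Caco-2-line level of control 2 was 3.74 CPM, and the difference between the lines, an alternative added after the data had been seen, was 0.79 and passed (edgeR adjusted p = 0.025).

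**Figure D1:**
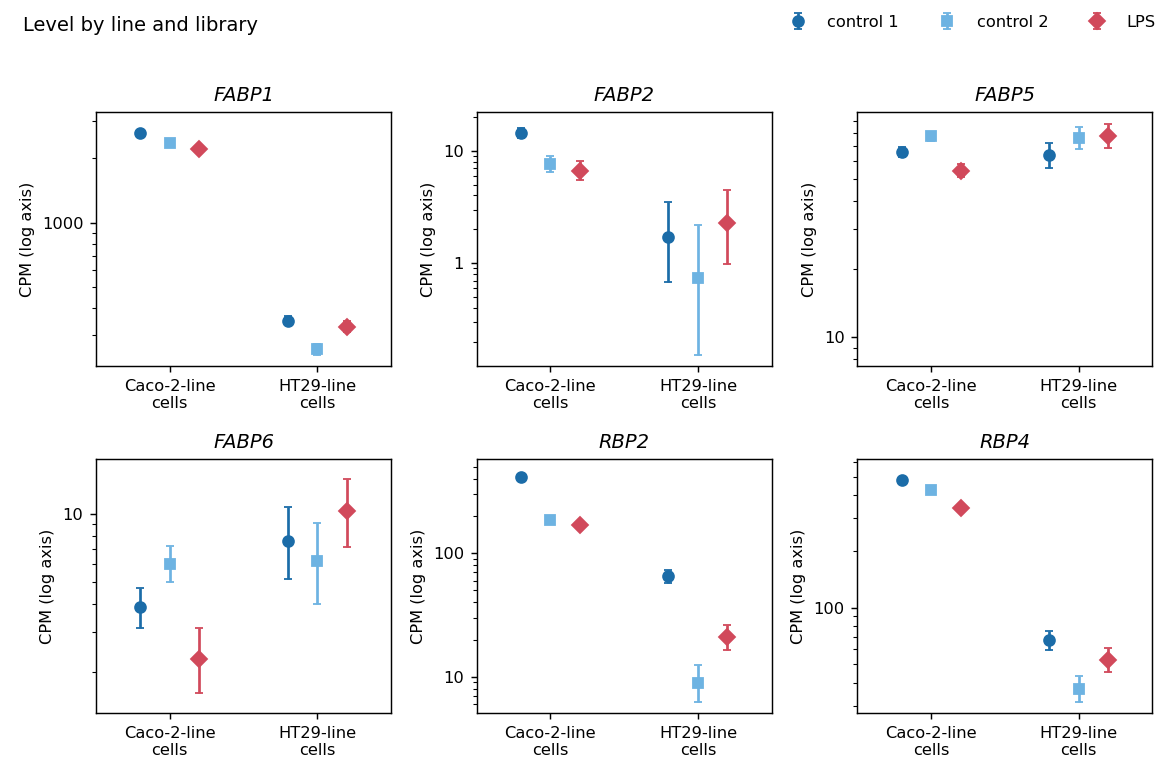
Level of each gene in CPM (log axis) in Caco-2-line and HT29-line cells of control 1, control 2 and LPS, with exact 95% Poisson intervals of the summed UMIs, which cover counting error only. FABP1, FABP2, RBP2 and RBP4 lie lower in HT29-line cells in every library, and RBP2 in Caco-2-line cells is 414 CPM in control 1 against 184 and 170 CPM.

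The low HT29-line levels were set beside the 14 Caco-2 line markers. PRAP1, one of them, went the other way, with 384%, 759% and 1028% of its Caco-2-line level in HT29-line cells, and AMBP, at 3.01 to 4.03 CPM in Caco-2-line cells, had 16.2%, 18.4% and 55.7%. The 7 markers, chosen after levels were seen, that lay above 50 CPM in Caco-2-line cells of every library had 3.54% to 12.5% of their Caco-2-line level in HT29-line cells of control 1, 3.90% to 8.56% in control 2 and 8.60% to 13.3% in LPS. FABP1 had 13.3%, 10.8% and 14.9%, RBP2 15.6%, 4.85% and 12.4%, and RBP4 14.0%, 8.77% and 15.5%. These shares lie near or just above the range of the markers, which also served to make the classes. The part of such carried-over RNA in the HT29-line levels was not tested. Within the HT29-line class, 15.8%, 16.6% and 22.9% of the cells did not have over 80% HT29 UMIs among their line-marker UMIs. These cells held 84.7%, 70.0% and 80.9% of the FABP1 UMIs of the class and 92.5%, 83.3% and 82.4% of its RBP2 UMIs. For RBP4 they held 82.2%, 49.3% and 74.6%, and for FABP5 26.9%, 22.6% and 25.4%.

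When each cell was classed by its own marker share instead, HT29-line RBP2 fell to 6.31, 2.03 and 5.59 CPM and its difference from Caco-2-line cells was -6.34. FABP1 then stood at 67.0, 91.5 and 86.9 CPM, with a difference of -5.13. RBP4 then stood at 55.0, 60.8 and 68.2 CPM, with a difference of -3.12. This classing drops the mixed cells of the HT29-line clusters and takes in cells from outside them, so these RBP4 values come in part from other cells than those of the clusters. Cluster 9, which took no line at a median HT29 share of 80% and is described below, was high in RBP4.

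Shares of cells with a UMI gave the same order. After each cell had been thinned to 1500 UMIs, 70.5%, 70.2% and 70.8% of Caco-2-line cells held an FABP1 UMI in control 1, control 2 and LPS (unthinned 87.6%, 85.6% and 84.1%). In HT29-line cells 12.3%, 11.2% and 16.4% did. The median depths were 5466, 4226 and 3563 UMIs in Caco-2-line cells and 5523, 3776 and 3709 in HT29-line cells. RBP4 was found in 38.2%, 34.8% and 31.5% of thinned Caco-2-line cells and in 6.38%, 3.19% and 4.60% of HT29-line cells. FABP5 was found in 6.87%, 8.11% and 5.56% of Caco-2-line cells and in 6.86%, 6.81% and 8.34% of HT29-line cells, which overlap. FABP2 was found in 2.13%, 1.18% and 1.24% of Caco-2-line cells and FABP6 in 0.684%, 0.503% and 0.278%. FABP1 was thus the only member of the 6 seen in most Caco-2-line cells at this depth.

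Within the Caco-2 line the genes differed by cluster. Levels by cluster are a description with no test, and neighbours in an order are said to differ only where their ranges over the 3 libraries do not overlap. Cluster 1 (3102 cells) was led by GNRH2, LGALS14, S100G and GSTA1, and all 12 enterocyte-like markers were raised in it. It is called enterocyte-like, as is cluster 6 (1111 cells, led by SLC11A2 and SORL1), in which all 12 were raised too. Cluster 2 (2960 cells, led by PLA2G2A and DKK1) had 6 of 7 stem-like markers raised, cluster 4 (1841 cells, led by MYBL2 and RAD51AP1) all 9 proliferating markers and cluster 11 (71 cells) all 8 placental-gene-expressing markers. Cluster 10 (195 cells, led by CLPS and INSM1) had 8 of 9 enteroendocrine-like markers raised. Cluster 7 (474 cells) was led by ALB, AFP and APOH, genes of fetal liver and plasma. Proliferating markers were raised there too, all 9 in cluster 7 and 8 of 9 in cluster 11. Their mean log2 ratios were 0.66 and 0.56, against 1.54 in cluster 4. Clusters 5 and 8 (led by ANKRD37 and SLC2A3, and by PAGE4 and SPRR1B) stay unnamed. Cluster 8 (314 cells, 205 of them from control 2) was classed Caco-2-line but carried markers of both lines. It had 15 of 18 HT29-line and 6 of 14 Caco-2 line markers raised. Its median HT29 share was 8.46%, and 13.4% of its cells lay between 20% and 80%. Cluster 11 was classed Caco-2-line at a median HT29 share of 4.54%, but 0 of 14 Caco-2 line and 0 of 18 HT29-line markers were raised in it. Of its cells, 19.7% lay between 20% and 80% and 14.1% above 80%. Cluster 3 (2341 cells) held most HT29-line cells.

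FABP1 was highest in enterocyte-like cluster 1, at 4788 to 5772 CPM over the libraries, apart from all other clusters. Clusters 7, 8, 5, 6 and 4 followed, from 2310 down to 1405 CPM on average, with overlapping ranges between neighbours. Stem-like cluster 2 stood apart below them at 745 to 881 CPM. Cluster 1 held 53.8% of all FABP1 UMIs. RBP2 followed a like order, with cluster 1 at 405 to 871 CPM, apart from the next cluster at 151 to 403 CPM. Cluster 1 held 54.3% of its UMIs. FABP2 was the most restricted of the 3, at 21.6 to 43.4 CPM in cluster 1 and 8.21 to 17.9 CPM in enterocyte-like cluster 6. Cluster 1 held 78.6% and cluster 6 a further 8.95% of FABP2 UMIs, and each cluster with 20 or more cells per library outside them averaged below 5 CPM.

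RBP4 did not follow FABP1, RBP2 and FABP2. Its highest level was in cluster 7, the cluster of fetal liver genes, at 813 to 1006 CPM, next to cluster 9 at 721 to 861 CPM. Stem-like cluster 2 (391 to 543 CPM), cluster 8, proliferating cluster 4 and enterocyte-like cluster 1 (354 to 497 CPM) did not differ beyond their ranges. Enterocyte-like cluster 6 was lower, at 219 to 256 CPM. RBP4 was thus present from stem-like to enterocyte-like cells, and the 2 enterocyte-like clusters differed from each other.

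FABP5 ran the other way from FABP1. Placental-gene-expressing cluster 11, whose class as Caco-2-line is weak as given above, was highest at 672, 473 and 159 CPM, the last from 8 LPS cells. Cluster 9 (91.3 to 151 CPM), proliferating cluster 4 (107 to 132 CPM) and stem-like cluster 2 (80.8 to 109 CPM) followed with overlapping ranges. Enterocyte-like clusters 6 and 1 were lowest, at 13.2 to 19.7 and 6.74 to 15.2 CPM. Clusters 4 and 2 together held most FABP5 UMIs, with 30.1% and 29.9%. In single cells FABP5 was also uneven. In control 2, 1 cell of HT29-line cluster 3 held 43 of the 306 HT29-line UMIs, and in control 1, 1 cell of cluster 11 held 63.

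FABP6 had few UMIs anywhere. Cluster 9 (9.13 to 14.4 CPM), enterocyte-like cluster 1 (4.43 to 18.1 CPM) and HT29-line cluster 3 (6.28 to 10.4 CPM) overlapped at the top. Cluster 1 held 43.1% of its UMIs and cluster 3 25.6%. The SLC10A2 transporter, which takes up bile acids in the ileum, was at or below 0.600 CPM in both lines of all libraries.

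**Figure D2:**
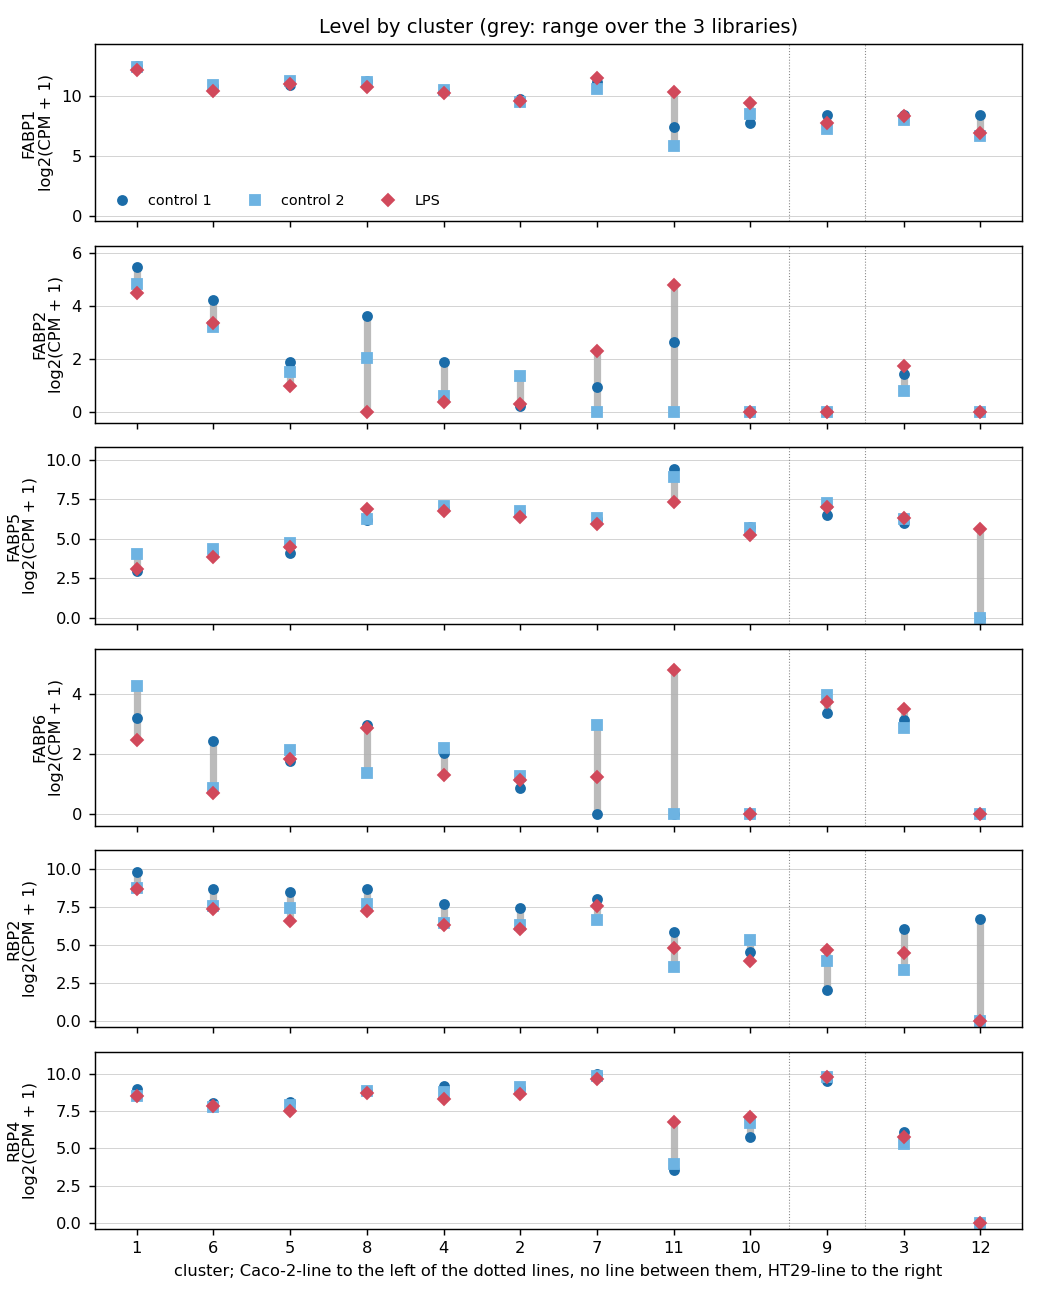
Level of each gene in log2(CPM + 1) in the 12 clusters, with 1 point per library and grey bars for the range over the 3 libraries. FABP1, FABP2 and RBP2 have their highest mean over libraries in enterocyte-like cluster 1 (the LPS point of cluster 11 comes from 8 cells), FABP5 is lowest there and highest in cluster 11, and RBP4 is highest in clusters 7 and 9.

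Over 30 points (10 clusters with at least 20 cells in each library, by 3 libraries), the pattern of RBP2 was close to that of FABP1 (Pearson r = 0.90 of log2(CPM + 10)) and less so to that of FABP2 (r = 0.71). FABP5 ran against FABP2 (r = -0.73) and FABP1 (r = -0.56). RBP4 correlated with FABP1 at 0.36. The points of 1 library share its depth and free RNA, and these are descriptions. Among 5732 other genes with a mean of at least 20 CPM, the 5 most like FABP1 were APOC3 (r = 0.97), AVP, PRDX6, MLN and APOM. Those most like RBP2 were GFER (r = 0.94), APOC3, FBXO6, PRDX6 and TM4SF5, so that APOC3 and PRDX6 were on both lists. FABP2 was most like S100G (r = 0.93), then SLC26A3, TKFC, MS4A10 and FCGRT. S100G and MS4A10 are among the enterocyte-like markers. FABP5 was most like SNRPD2 (r = 0.94), NME4, ERP29, NME1 and EMP2. RBP4 was most like SERPINA1 (r = 0.81), a plasma protein gene, then MRPS22, MTHFS, SPINK1 and BIN1. FABP6 was most like CCL15 (r = 0.82), MGLL, HLA-C, GSN and SERP1. FABP2 and FABP6 themselves averaged below that minimum. In these clusters FABP6 lay at 0 to 18.1 CPM, and 1 cell held 46 of the 81 UMIs of cluster 1 in control 2. The FABP6 list thus rests on few UMIs.

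The same held cell by cell within the Caco-2 line. In thinned cells with an FABP1 UMI, RBP2 was seen in 36.8%, 20.2% and 19.98% in control 1, control 2 and LPS, against 16.2%, 7.52% and 7.01% of cells without one. FABP5 was seen in 5.04%, 5.99% and 4.50% of cells with FABP1 and in 11.2%, 13.1% and 8.13% of those without. RBP4 was seen somewhat more often with FABP1 in each library, at 39.7%, 36.3% and 33.6% with it and 34.8%, 31.3% and 26.5% without it. Cells of 1 library are not replicates, so no test was made.

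Cluster 9 was looked at more closely because RBP4 there was carried by few cells. It holds 60, 76 and 69 cells, and 4 of its 10 leading genes were goblet-like markers, beside the hormone genes SST (somatostatin) and GCG (glucagon). Its cells with an SST or GCG UMI, a split made after the values had been seen, numbered 10, 11 and 12 and held 94.9%, 84.9% and 85.9% of its RBP4 UMIs. RBP4 stood at 4677, 6317 and 5511 CPM in them and at 42.8, 146 and 140 CPM in the other cells of the cluster. Their median depths were 4384, 2473 and 2248 UMIs, below those of the other cells at 4719, 3345 and 3012. In enteroendocrine-like cluster 10, where no cell held an SST or GCG UMI, RBP4 was at 52.5, 100 and 133 CPM. An SST or GCG UMI was seen in 0.0253%, 0.0503% and 0.329% of Caco-2-line cells. In these 1, 2 and 13 cells RBP4 was at 1276, 829 and 679 CPM, against 481, 423 and 338.5 CPM in the other Caco-2-line cells. HT29-line cluster 3 had 0, 3 and 7 such cells. Their RBP4 was at 1021 CPM in control 2 and 394.5 CPM in LPS, against 33.3 and 50.4 CPM in its other cells. The higher RBP4 of such cells was thus not confined to cluster 9, but outside it rests on few cells. TTR, the plasma partner of RBP4, was at 41.6, 93.8 and 241 CPM in the hormone cells of cluster 9. In Caco-2-line cells it was at 436, 358 and 357 CPM. The TTR levels of the hormone cells rest on few UMIs from 10, 11 and 12 cells, and no interval was made for them.

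**Figure D3:**
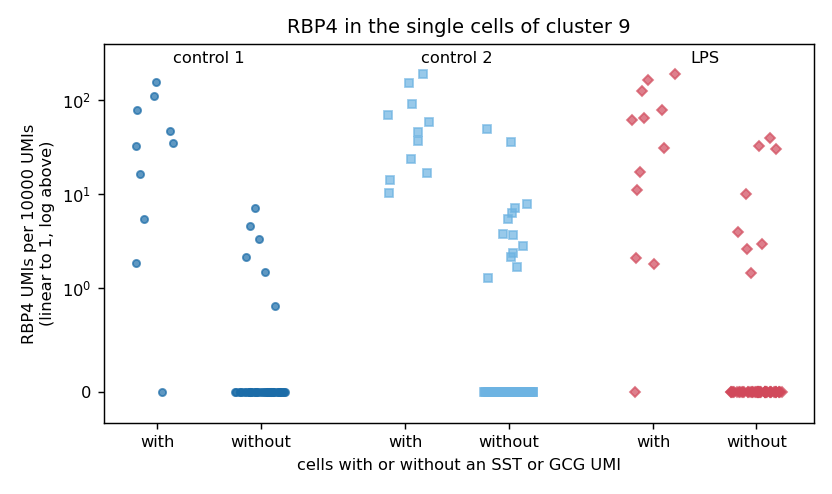
RBP4 UMIs scaled to a fixed UMI total (given on the axis, linear to 1 and log above) in each cell of cluster 9, split by library and by whether the cell held an SST or GCG UMI. Of the 60 cells in control 1, the 10 with such a UMI hold 225 of 237 RBP4 UMIs, and such cells hold 202 of 238 in control 2 and 183 of 213 in LPS.

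RBP2 differed between the controls more than any other well-detected gene. In Caco-2-line cells control 1 was 2.25-fold above control 2. Among 2429 genes with a mean of at least 50 CPM over the controls, 0 had a larger log2 ratio in either direction than its 1.17, and the next was TFF2 at 1.09. The median over these genes was 0.01. All 7 Caco-2-line clusters with 300 or more cells had RBP2 higher in control 1, by 1.92- to 2.60-fold. In enterocyte-like cluster 1 the libraries gave 871, 426 and 405 CPM, and in stem-like cluster 2 168, 78.1 and 65.1 CPM. Cluster 10 was the other way, at 21.9 and 38.5 CPM, but from only 5 and 10 UMIs. After thinning, 30.7% of Caco-2-line cells of control 1 held an RBP2 UMI, against 16.4% in control 2 and 16.2% in LPS. With the minimums of control 1 in all libraries, the ratio over all cells was 2.33, next to 2.37 with the minimums of each library. FABP2, with 14.3 and 7.67 CPM, was 1.86-fold higher in control 1, FABP1 1.11-fold and RBP4 1.14-fold. FABP5 and FABP6 were the lower in control 1, at 0.853 and 0.643 of control 2. The FABP6 direction rests on the 1 cell of control 2 with 46 FABP6 UMIs. Without that cell FABP6 stood at 3.74 CPM in control 2, below the 3.88 CPM of control 1. Control 1 was the deeper library, and the part of depth in the RBP2 difference beyond these values was not tested.

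**Figure D4:**
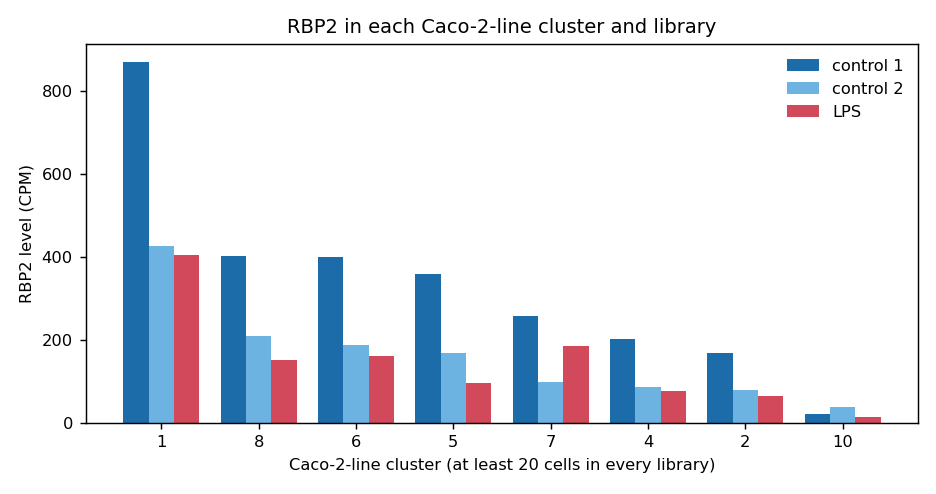
RBP2 level in CPM in each Caco-2-line cluster with at least 20 cells in every library, as bars from 0 for control 1, control 2 and LPS. Control 1 is the highest bar in 7 of 8 clusters, and cluster 1 reaches 871, 426 and 405 CPM.

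Whether the genes respond to LPS was asked with the lone LPS library, which was assumed to vary as the controls do. The fit by lines did not pair the 2 line classes of a library, which come from the same co-culture. The difference of the LPS effect between the lines was thus tested without this pairing. None of the 6 genes passed the test in Caco-2-line cells, in HT29-line cells or over whole libraries. In Caco-2-line cells edgeR called 0 genes of 15086, with 420 at an unadjusted p under 0.05, and DESeq2 called 0, so 0% were called in all. In HT29-line cells 2 genes were called (0.0133%) and over whole libraries 17 (0.105%, of which 0.0682% higher and 0.0372% lower).

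The Caco-2-line CPM of LPS lay below both controls for all 6 genes, as did that of 24.7% of the genes tested, while 48.8% lay above both. These shares use CPM with no TMM scaling, whereas the fitted changes use it. The TMM factor was 1.02 for LPS against 0.944 and 0.979 for the controls, so CPM places LPS higher than the fit does. The log2 changes were -0.27 ± 0.22 (SE) for FABP1, -0.82 ± 0.36 for FABP2, -0.91 ± 0.70 for RBP2 and -0.50 ± 0.28 for RBP4. FABP5 gave -0.48 ± 0.18 and FABP6 -1.18 ± 0.35, or -0.82 without the control 2 cell rich in it. Each of these had an edgeR adjusted p of 0.99. The median over the 6 genes was -0.66, against 0.00 over all genes tested.

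For RBP2 the control chosen set the value. Its change was -0.17 without control 1 and -1.39 without control 2, with no test for either. With no filter on low counts it passed (edgeR adjusted p = 0.0046 in Caco-2-line cells and 1.7e-05 over whole libraries). FABP2 changed likewise, from -0.26 without control 1 to -1.21 without control 2. In HT29-line cells the log2 changes were 0.06 ± 0.22 for FABP1, 0.10 ± 0.19 for FABP5, 0.52 ± 0.39 for FABP6 and -0.05 ± 0.32 for RBP4. FABP2 and RBP2 had wide errors there, at 0.83 ± 1.01 and -0.88 ± 0.90. All 6 had an edgeR adjusted p of 1.0. Over all genes, again by CPM with no TMM scaling, 24.0% lay below both controls and 38.3% above both in HT29-line cells. Over whole libraries 23.5% lay below and 48.5% above. Over whole libraries the change of RBP2 was -0.94 ± 0.30 and that of RBP4 -0.50 ± 0.17 (edgeR adjusted p = 0.96 for both). The difference of the LPS effect between the lines was largest for FABP6, at 1.70 ± 0.53, and passed for none of the 6 (edgeR adjusted p = 1.00 for each). For this difference edgeR and DESeq2 called 0 of 15086 genes, with 295 at an unadjusted p under 0.05 in edgeR.

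**Figure D5:**
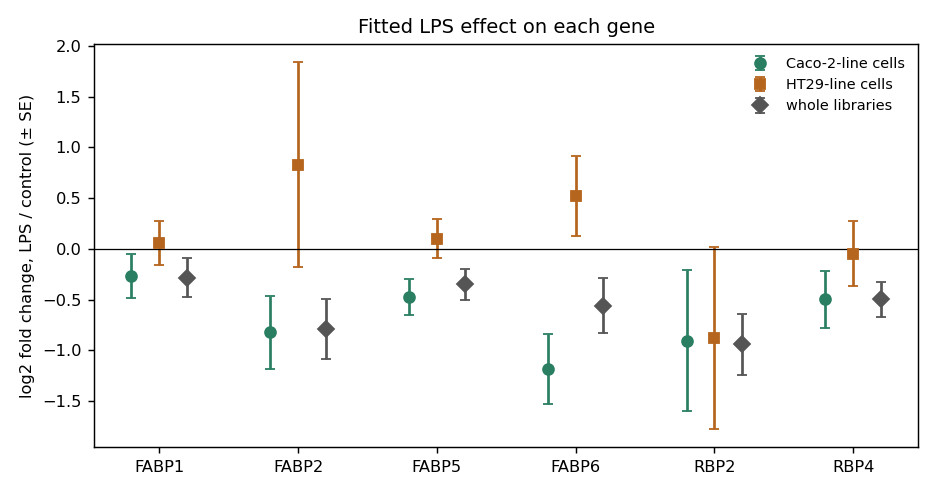
Fitted log2 fold change of LPS over control for each gene, with SE, in Caco-2-line cells, HT29-line cells and whole libraries. All Caco-2-line values are below 0, from -0.27 for FABP1 to -1.18 for FABP6, and none passed the adjusted test.

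Genes around the carriers were counted by lists in the comparison of the lines, where 57.9% of all genes were called and the median log2 difference was -0.08. Of 11 other intracellular lipid-binding protein genes, 7 were tested, 6 were lower in HT29-line cells and 1 was higher, with a median of -3.55. CRABP2, a retinoic acid binding protein, was the higher one, at 763, 822 and 738 CPM in HT29-line cells against 22.5, 43.9 and 29.8 CPM in Caco-2-line cells, a difference of 4.52 ± 0.27 (edgeR adjusted p = 5.2e-07). It thus ran opposite to RBP2 and RBP4. RBP5 and RBP7 were lower, by -4.39 and -3.74. Both sizes rest on few UMIs, as RBP5 reached at most 0.244 and RBP7 at most 0.495 CPM in HT29-line cells of the controls. FABP7, the brain type, was lower by -5.61 with 1 HT29-line UMI in the controls, but gave 0.13 with cells classed by their own share. Over whole libraries FABP7 was the only gene of the pathway lists called for LPS, at -2.34 ± 0.39 (edgeR adjusted p = 0.0094), and it did not pass with DESeq2 (adjusted p = 0.069) or with no doublets removed (adjusted p = 0.063). Among the marker lists, CLPS of the enteroendocrine-like list was also called lower over whole libraries, and the median of the 8 tested genes of that list was -1.30, against 0.01 over all genes. Enteroendocrine-like cluster 10 held 64, 92 and 39 cells in control 1, control 2 and LPS. Cluster 8 held 70, 205 and 39 cells and cluster 11 held 21, 42 and 8, so cluster 10 was not alone in having few LPS cells. The part of any of these clusters in the FABP7 value was not tested.

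Of 18 genes for triglyceride resynthesis and chylomicron assembly, all were tested, 11 were lower, 2 were higher and 5 were not called, with a median of -0.72. TM6SF2 (-4.54), APOB (-4.27), MTTP (-4.13) and APOA4 (-4.06), which load and carry lipid in the secretory path, were lower in HT29-line cells, as FABP1 was. TM6SF2 was at 0.24 and 0.25 CPM in HT29-line cells of the controls, so its size rests on few UMIs. Of 14 genes for fatty acid uptake and activation, 12 were tested, 2 were lower and 4 were higher. CD36, a fatty acid receptor, was lower by -3.01, whereas ACSL1, ACSL4 and ACSL5, which activate fatty acids, were higher by 2.51, 0.87 and 0.79. CD36 was at 0.73 and 0.25 CPM in HT29-line cells of the controls, again from few UMIs. DBI, which binds acyl-CoA, was lower by -0.72, and 6 of the 12 were not called.

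Of 18 genes for retinoid uptake, storage and metabolism, 14 were tested, 4 were lower and 2 were higher. TTR was lower by -3.07 ± 0.34, close to RBP4. ISX, a transcription factor gene, was lower by -4.16, from only 0.244 and 0.495 CPM in HT29-line cells of the controls. LRAT, which esterifies retinol held by RBP2, was lower by -3.35, which did not pass with DESeq2 (adjusted p = 0.11). LRAT itself reached only 1.02, 1.59 and 1.62 CPM in Caco-2-line cells. DHRS9, a retinol dehydrogenase, was higher by 4.98. Among 11 nuclear receptor genes for retinoids and fatty acids, 10 were tested, 4 were higher, led by RARG at 3.04, and 1 was lower, RARB, which did not pass with DESeq2 (adjusted p = 0.098).

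Of 10 bile acid genes, 8 were tested, 7 were lower and 1 was higher, with a median of -2.47, unlike FABP6 itself. SLCO2B1 (-3.55), ABCC2 (-3.50), SLC51A (-2.85) and FGF19 (-2.66) were the most changed. ABCC3 was the higher one, by 0.60 (edgeR adjusted p = 0.0053). It stood at 134 and 130 CPM in HT29-line cells of the controls, against 74.8 and 91.7 CPM in Caco-2-line cells. Of 12 intestinal and hepatic transcription factor genes, 10 were tested, 7 were lower and 1 was higher. CREB3L3 (-3.40) and CDX2 (-3.38) were lower in HT29-line cells, and CDX1 was higher by 5.33. For LPS in either line, 0 genes of these lists were called.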

How the data were processed

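The authors mapped reads of 3 libraries to GRCh38 with Cell Ranger and deposited raw UMI counts for each barcode and gene, with no scaling and before the cell minimums below. From these counts, cells with at least 2250 UMIs and 770 genes (control 1) or 1500 UMIs and 700 genes (control 2; used here for LPS, whose minimums are not given in the sources used here) and at most 20% mitochondrial UMIs were kept. The automatic Scrublet threshold in scanpy 1.11.5 marked 0 or 1 cell per library, so the 6% of cells with the highest scores were removed. SCTransform (0.4.2) per library, integration in Seurat 5.3.0 on 3000 features, a graph of 15 neighbours on 50 principal components and clusters by leidenalg 0.10.2 (resolution 0.5) followed, without the 6 genes and the lists. A cluster was Caco-2-line with a median HT29 share of line-marker UMIs under 20%, and HT29-line over 80%.

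Sums of UMIs per line class or library entered edgeR 4.0.16 and its quasi-likelihood F-test (R 4.3.3, TMM, filter on low counts, adjusted p under 0.05), in a fit of 6 sums with 2 residual degrees of freedom or of 3 libraries with 1. The steps were tested on simulated counts, drawn from 1 mean per gene, so with no difference between the lines but the change put in. In each simulation 200 genes were changed at once. Of log2 changes of 1 they recovered 98.9% between the lines. For LPS they recovered 93.6% in Caco-2-line cells, 72.5% in HT29-line cells and 98.0% over whole libraries. For the difference of the LPS effect they recovered 34.3%. The LPS tests of the real data called only 0, 2 and 17 genes in Caco-2-line cells, HT29-line cells and whole libraries. An adjusted p is harder to pass where fewer genes change. The shares for LPS thus do not give how often a response of few genes would be called. Genes with low levels, such as FABP2 and FABP6, were not among those changed. Each simulated gene was given the spread of the trend over genes and not its own. The shares recovered thus do not hold for a gene with a wider spread, such as RBP2 (SE of 0.70 for LPS in Caco-2-line cells). DESeq2 1.42.0, other scalings, filters, clusterings, classes and a replicate block were alternatives. The members and lists were chosen with earlier results of these data known. Genes named are the members, list genes past the threshold (at most 8 per list by size) and the 5 genes most like each member. The Caco-2 markers above the carry-over minimum of 50 CPM, the splits of cluster 9 and the single-cell values were chosen after levels were seen. Intervals cover counting error only. RefSeq promoter windows of 250 bases were found for 5 of the 6 genes. The values of 1 list gene are not reported here.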

Additional observations from a re-analysis of the deposited data

How the results depend on the processing

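The 4 calls between the lines (FABP1, FABP2, RBP2 and RBP4, all lower in HT29-line cells) kept their direction and side of the threshold in all alternatives with a test, but their size moved. With no doublets removed the log2 differences were -2.37, -2.50, -2.32 and -2.23 in that order. RBP4 also gave -2.28 with members kept for clustering, -2.18 at resolution 0.8 and -3.86 with log normalization. With log normalization RBP2 gave -3.78, and with the minimums of control 1 it gave -3.76. With each cell's marker share FABP2 gave -4.05, and FABP1 and RBP2 moved as given in the report. Leaving out a control leaves 0 residual degrees of freedom, so it gives a value and no test or count. Among all alternatives for the 6 genes, 290 values kept direction and side, 18 moved by more than the SE with no test, 4 newly passed (given in the report) and 10 with a test turned sign, none of them called in the main test.

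The sign turned for FABP5 between the lines with the replicate block (0.10) and, for LPS in HT29-line cells, for FABP1 with no doublets removed (-0.23), for RBP4 with log normalization (0.046), and for FABP2 (-1.02), RBP2 (0.37) and RBP4 (0.17) with line by each cell's marker share. For the difference of the LPS effect it turned for FABP2 with each cell's share (-0.22), for RBP2 with no doublets removed (-0.13) and with log normalization (-0.008), and for RBP4 with no doublets removed (-0.23). FABP7 between the lines gave 0.13 with each cell's share.

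Counts of LPS calls are small and moved. In Caco-2-line cells 0 became 34 with no filter on low counts, and 1 with the minimums of control 1 or with members kept for clustering. In HT29-line cells 2 became 5 with DESeq2, 32 with no filter, 0 with no doublets removed (470 at an unadjusted p under 0.05 in edgeR), 4 with the minimums of control 1 or with log normalization, 6 with each cell's share and 7 with members kept. The difference of the LPS effect rose from 0 to 6 with no filter and 1 with the minimums of control 1. Over whole libraries 17 became 6 with DESeq2, 46 with no filter and 11 with no doublets removed. The causes were not tested. The replicate block gave 10035 calls between the lines against 8739 and changed no call of a member but FABP6. It pairs the 2 line classes of each library, which come from the same co-culture. Depth limits FABP2 and FABP6, which had 372 and 157 and, for FABP6, 133 and 150 UMIs in the kept cells of control 1 and control 2.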
